A study of Mus musculus with 12 samples.

Results

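Glo1, which encodes glyoxalase 1, was examined together with 4 genes that lie beside it on mouse chromosome 17, namely Btbd9, 1700097N02Rik, Dnah8 and Glp1r. The members were the probe sets of a whole-genome array whose annotated gene symbol is exactly one of these 5 names, which gave 13 of 45037 tested probe sets and 5 of 18193 measured genes. Btbd9 had 3 probe sets, Glo1 had 4, 1700097N02Rik had 3, Dnah8 had 2 and Glp1r had 1. The genes were chosen because the values of these same arrays differed between the colonies at Glo1, so the differences between colonies given below for the members are descriptions without a test.

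RNA came from spleens of female mice of 2 colonies of the inbred BALB/c strain, BALB/cJ and BALB/cByJ. Each colony supplied 3 naïve mice and 3 mice that had received human cartilage proteoglycan (PG) in the peritoneum once, 100 µg of protein with 2 mg of the adjuvant DDA, 12 days before the spleen was taken. This dose is that of the array labels, and the study's methods state a lower dose of PG for its injections of the colonies. Every array was a biological replicate, the labels give no age and name no transgene or induced mutation, and no group received the adjuvant alone, so the effects of PG and adjuvant cannot be told apart. The deposited values were on a log scale, read here as log2, and each probe set had its median over the 12 arrays subtracted, so a value of 0 is the middle of the arrays and carries no signal level. For the same reason the spleen label could not be checked against the level of its markers.

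The glyoxalase pathway removes methylglyoxal, a reactive by-product of glycolysis that modifies proteins and DNA. Glyoxalase 1 converts the adduct that methylglyoxal forms with glutathione into S-lactoylglutathione, and glyoxalase 2, the product of Hagh, hydrolyses it to D-lactate and frees the glutathione. Some inbred mouse strains carry a duplicated chromosomal segment that includes Glo1. The arrays measured RNA and not gene copies.

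The start regions of Glo1 and Dnah8 are shown because Glo1 differed between the colonies in all of its probe sets and because Dnah8 and 1700097N02Rik, which moved in the same direction, begin beside each other. All sequences are from RefSeq on build GRCm38.p6, 5′ to 3′ on the strand of the gene, and 4 of the 5 members matched the table. The first holds the 250 bases before the start of Glo1 on the minus strand, chr17:30612660-30612909, with the capitals marking a CCAAT box. The second holds the 250 bases before the start of Dnah8 on the plus strand, chr17:30626686-30626935, with the capitals marking the 30 bases that lie between the first transcribed bases of Dnah8 and of 1700097N02Rik.
Glo1: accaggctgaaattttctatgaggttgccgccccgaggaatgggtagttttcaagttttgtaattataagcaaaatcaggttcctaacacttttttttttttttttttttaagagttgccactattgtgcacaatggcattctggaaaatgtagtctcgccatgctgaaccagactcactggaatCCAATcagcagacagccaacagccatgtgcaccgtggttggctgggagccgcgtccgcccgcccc
Dnah8: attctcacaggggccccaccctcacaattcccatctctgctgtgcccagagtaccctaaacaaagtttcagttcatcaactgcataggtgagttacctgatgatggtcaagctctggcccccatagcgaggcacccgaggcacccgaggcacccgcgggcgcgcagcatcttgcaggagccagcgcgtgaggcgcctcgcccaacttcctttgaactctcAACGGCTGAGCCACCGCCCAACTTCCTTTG
Dnah8 and 1700097N02Rik are read in opposite directions from either side of the capitals. The window before Glo1 was 46.4% G or C with 8 CpG pairs, against 59.2% and 13 for Dnah8, 60% and 10 for 1700097N02Rik, and 73.2% and 26 for Glp1r, so Glo1 had the lowest and Glp1r the highest content. Both strands of each window were searched for 4 motifs, of which CCAAT was 1. A further motif was GGGCGG, known as the GC box. The third was TATAAA, the letters found in many promoters at which the general transcription machinery assembles. The last was TGACNNNGC, the core of an antioxidant response element. Glo1 held 1 CCAAT and 3 GGGCGG, Dnah8 and 1700097N02Rik held 1 GGGCGG each, and Glp1r held 3 GGGCGG. Of 32851 start windows of the same length, 33.85% held CCAAT, 32.74% held GGGCGG, 12.37% held TATAAA and 10.16% held TGACNNNGC. Neither of the last pair of motifs was in the windows of the 4 matched members. A match of letters is not a binding site.

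Glo1 RNA was higher in BALB/cByJ spleens than in BALB/cJ spleens in both states. The mean of its 4 probe sets was 0.75 ± 0.027 (SD, n = 3) in naïve BALB/cByJ and -0.78 ± 0.054 (SD, n = 3) in naïve BALB/cJ mice. After immunization it was 0.70 ± 0.035 (SD, n = 3) in BALB/cByJ and -0.72 ± 0.071 (SD, n = 3) in BALB/cJ mice. In descending order the groups therefore ran naïve BALB/cByJ, immunized BALB/cByJ, immunized BALB/cJ and naïve BALB/cJ. The colony difference on the log2 scale was 1.53 in naïve and 1.42 in immunized mice, where the pooled SD within groups was 0.0497. The 2 groups of each colony overlapped in this mean, whereas no array of one colony reached the range of the other. In RNA of whole spleen, more cells of a type and more RNA per cell cannot be told apart.

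Probe set 1424108_at of Glo1 had values of 0.66, 0.63 and 0.75 in naïve and 0.69, 0.69 and 0.69 in immunized BALB/cByJ mice. In BALB/cJ mice it had -0.66, -0.70 and -0.72 in naïve and -0.66, -0.63 and -0.68 in immunized animals. The arrays of a colony lay close together and the lowest BALB/cByJ array stood 1.27 above the highest BALB/cJ array on the log2 scale. The difference was 1.37 (SE 0.065) in naïve and 1.35 in immunized mice, or 2.59-fold and 2.54-fold.

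Probe set 1424109_a_at gave 0.53, 0.74 and 0.79 in naïve and 0.75, 0.65 and 0.66 in immunized BALB/cByJ spleens. BALB/cJ spleens gave -0.78, -0.87 and -0.81 when naïve and -0.59, -0.53 and -0.82 when immunized. A gap of 1.07 separated the colonies, and the immunized BALB/cJ arrays 1 and 2 were the highest of their colony. The fitted difference was 1.51 (SE 0.093) in naïve and 1.34 in immunized mice, or 2.84-fold and 2.53-fold.

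For probe set 1436070_at the BALB/cByJ values were 0.72, 0.80 and 0.72 in naïve and 0.85, 0.72 and 0.78 in immunized mice. The BALB/cJ values were -0.90, -0.88 and -0.72 in naïve and -0.92, -0.72 and -0.91 in immunized mice. This probe set showed the widest gap between colonies, 1.44. Its difference was 1.58 (SE 0.081) in naïve and 1.63 in immunized mice, or 2.99-fold and 3.10-fold.

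The remaining Glo1 probe set, 1451240_a_at, read 1.02, 0.75 and 0.85 in naïve and 0.66, 0.65 and 0.56 in immunized BALB/cByJ mice. It read -0.56, -0.87 and -0.95 in naïve and -0.68, -0.75 and -0.79 in immunized BALB/cJ mice. The colonies were 1.12 apart at their nearest arrays, and naïve BALB/cByJ array 1 was the highest of all 12. Its difference was 1.66 (SE 0.10) in naïve and 1.36 in immunized mice, or 3.17-fold and 2.57-fold. By the size of the colony difference the 4 Glo1 probe sets ranked 174, 109, 90 and 72 in naïve and 27, 28, 18 and 26 in immunized mice among the 45037, in the order given here. They are not 4 independent measurements, since 3 of them were designed on the same cDNA record.

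**Figure D1:**
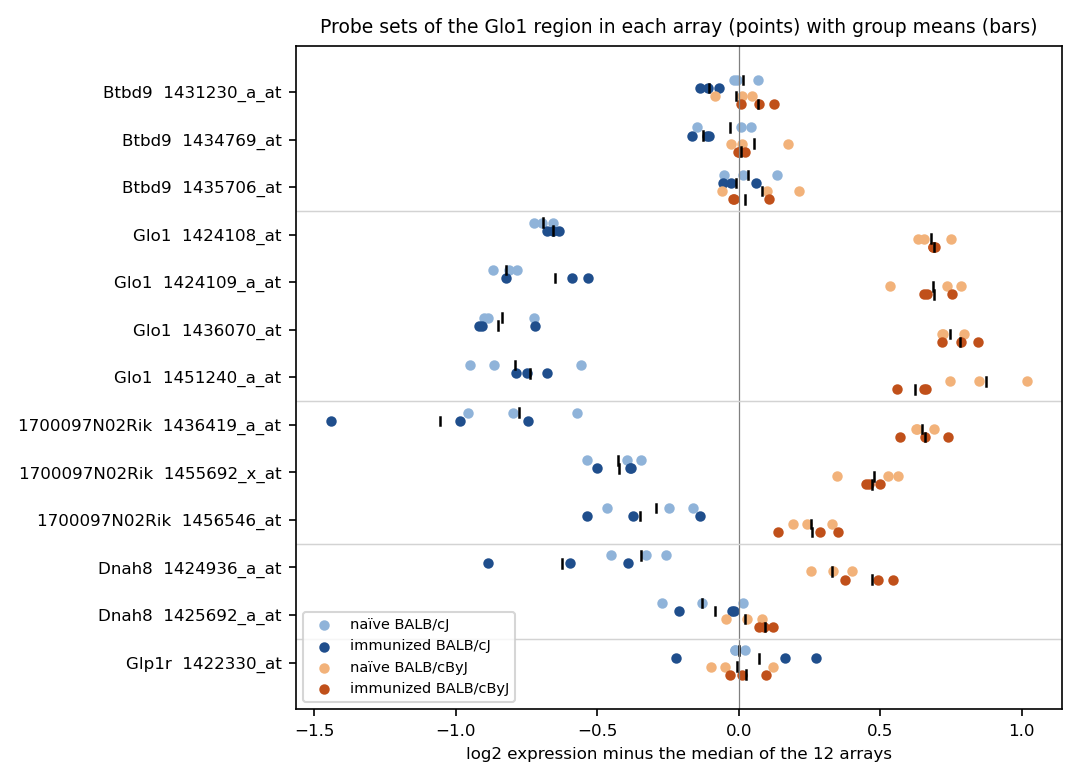
Each point is 1 array and each short bar the mean of 3 arrays, with the log2 expression minus the median of the 12 arrays on the horizontal axis and the 13 probe sets, grouped by gene in chromosomal order, on the vertical axis. The BALB/cByJ points of all 4 Glo1 probe sets lie at or above 0.53 and the BALB/cJ points at or below -0.53, while the points of Btbd9 and Glp1r mix around 0.

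1700097N02Rik is annotated as a long non-coding RNA, and its function is not described in the sources used here. All 3 of its probe sets were higher in every BALB/cByJ array than in every BALB/cJ array. Probe set 1436419_a_at had values of 0.63, 0.69 and 0.63 in naïve and 0.57, 0.74 and 0.66 in immunized BALB/cByJ mice. Among BALB/cJ arrays it had -0.57, -0.80 and -0.95 in naïve and -1.44, -0.74 and -0.98 in immunized animals. The lowest value by a wide margin was that of immunized BALB/cJ array 1. Its colony difference was 1.42 (SE 0.15) in naïve and 1.71 in immunized mice, or 2.68-fold and 3.28-fold, and the latter was 1.52 without that array.

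Values of 1455692_x_at were 0.35, 0.56 and 0.53 in naïve and 0.50, 0.45 and 0.46 in immunized BALB/cByJ mice, against -0.35, -0.53 and -0.39 in naïve and -0.50, -0.39 and -0.38 in immunized BALB/cJ mice. The colonies differed by 0.90 (SE 0.081) and 0.89, or 1.87-fold and 1.85-fold, with a gap of 0.69 between the nearest arrays. The suffix of this probe set marks probes that can also bind other transcripts. Values of 1456546_at were 0.19, 0.24 and 0.33 in naïve and 0.29, 0.35 and 0.14 in immunized BALB/cByJ mice, against -0.25, -0.47 and -0.16 in naïve and -0.54, -0.37 and -0.14 in immunized BALB/cJ mice. Here the difference was smaller, 0.54 (SE 0.11) and 0.61, or 1.46-fold and 1.52-fold, and the nearest arrays of the colonies were 0.28 apart. Of the 3 probe sets, 2 were designed on the same cDNA record.

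Dnah8 encodes a heavy chain of axonemal dynein, the motor that bends cilia and sperm flagella. Its probe set 1424936_a_at had values of 0.26, 0.40 and 0.33 in naïve and 0.49, 0.55 and 0.37 in immunized BALB/cByJ mice. BALB/cJ mice had -0.33, -0.45 and -0.26 when naïve and -0.89, -0.39 and -0.60 when immunized. The colonies did not overlap, with a gap of 0.51, and the lowest array was again immunized BALB/cJ array 1. The difference was 0.68 (SE 0.11) in naïve and 1.09 in immunized mice, or 1.60-fold and 2.14-fold, and the latter was 0.96 without that array. In the other probe set, 1425692_a_at, the values ran from -0.04 to 0.12 in BALB/cByJ and from -0.27 to 0.02 in BALB/cJ mice. There the colonies overlapped by 0.06, and the difference was 0.15 in naïve and 0.18 in immunized mice. The 2 probe sets of Dnah8 thus differed in the size of the colony difference. The median of 12 marker genes of ciliated cells lay between -0.10 and 0.10 in all arrays.

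The outer members showed small colony differences. Btbd9 encodes a BTB domain protein, and variants near its human counterpart are linked to restless legs syndrome. Its 3 probe sets ran from -0.16 to 0.21 over the 12 arrays, and the colony difference was -0.02, 0.08 and 0.05 in naïve and 0.17, 0.13 and 0.03 in immunized mice. The colonies overlapped in each of them. Glp1r encodes the receptor for glucagon-like peptide 1, an incretin hormone that raises insulin secretion. Its values ran from -0.10 to 0.12 in BALB/cByJ and from -0.22 to 0.27 in BALB/cJ mice, with a colony difference of -0.01 in naïve and -0.05 in immunized mice. Without a signal level it is not known whether either gene was above background in spleen.

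Over the whole stretch, 8 of the 13 probe sets had all 6 BALB/cByJ arrays above all 6 BALB/cJ arrays, which was the case for 1.39% of all probe sets. These 8 were the 4 of Glo1, the 3 of 1700097N02Rik and 1 of Dnah8, and no member was reversed, against 0.837% of all probe sets. Since the colony values chose the members, nothing is read from this share. By chromosomal order the 3 genes that differed were neighbours, with Btbd9 on one side and Glp1r on the other. No other gene with a probe set of its own lay among the 5 members.

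The genes around the stretch were taken by position alone, 15 measured genes on each side, which gave 30 genes with 55 probe sets. Their colony differences were tested with limma over all 45037 probe sets. In naïve mice 2 of the 30 were called, both higher in BALB/cByJ, against a background of 7.39% of genes, and 10 of the 55 probe sets had an unadjusted p under 0.05 against 18.7%. In immunized mice 0 of the 30 were called by limma against 0.165%, 6 of the 55 probe sets had an unadjusted p under 0.05 against 7.92% of all, and the methods' analysis of variance called 0 against 0.158% of all probe sets. Over both states 3 were called, again all higher, against 7.79%, with 7 probe sets at an unadjusted p under 0.05 against 18.9%. The median difference over the 55 probe sets was 0.03 in naïve and 0.04 in immunized mice, beside -0.01 and -0.01 over all probe sets. Without naïve BALB/cByJ array 3, naïve BALB/cJ array 1 or naïve BALB/cJ array 2 the count in naïve mice was 0.

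The nearest measured gene before Btbd9 is Zfand3, a zinc finger gene, whose 7 probe sets differed by -0.19 to 0.24 in naïve and -0.14 to 0.14 in immunized mice. Next in that direction, Mdga1, which encodes a membrane protein of neurons, differed by 0.14 and 0.01, and the 3 probe sets of Ccdc167 differed by 0.02 to 0.16 and by -0.12 to 0.12. After Glp1r come Umodl1 with differences of -0.04 and 0.02, the cholesterol exporter gene Abcg1 with 0.12 and -0.04 in naïve and -0.05 and 0.19 in immunized mice, and the trefoil factor gene Tff3 with 0.13 and 0.02. None of these 6 genes was called in any colony contrast. A colony difference above 0.5 in both states was found in 8 of the 13 member probe sets and in 1 of the 55 flanking probe sets. The members were chosen by their colony values, so nothing is read from the contrast of these counts. The share of all probe sets above 0.5 was not computed. Complete separation of the colonies in the direction of Glo1 was found in 1 of the 55, a probe set of Pim1. It was found in 1.39% of all probe sets.

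**Figure D2:**
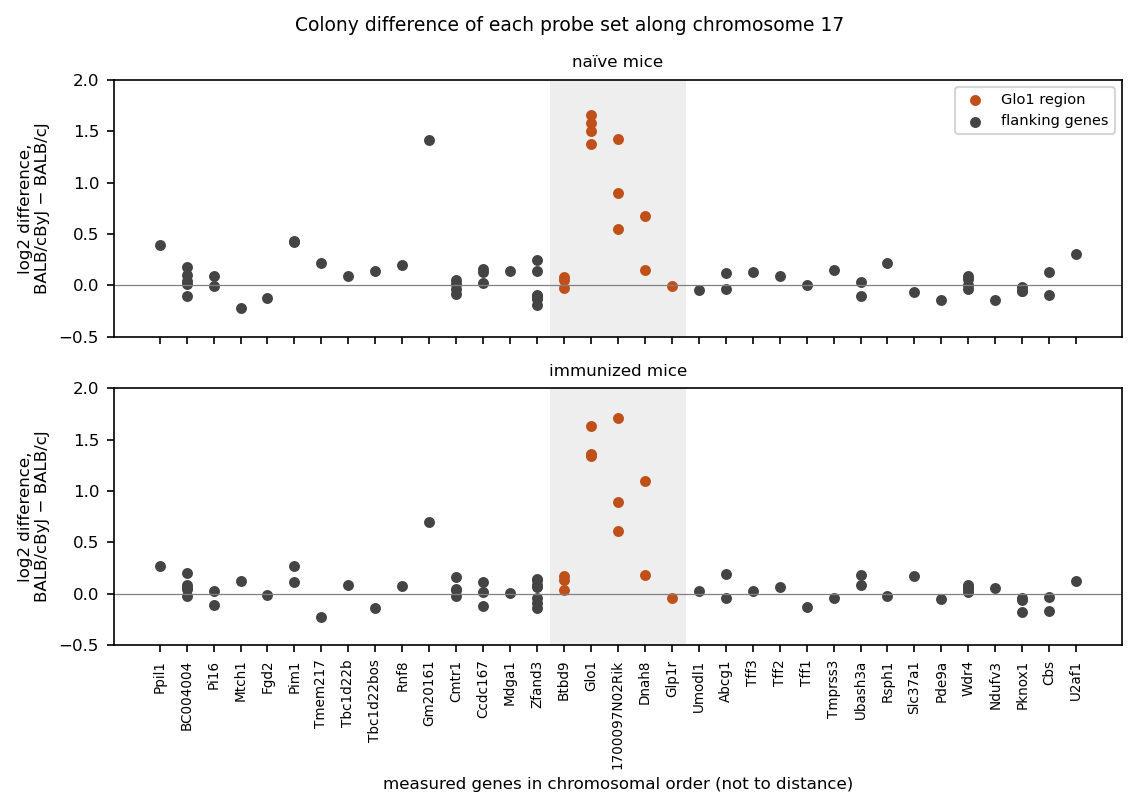
Each point is 1 probe set, with measured genes in chromosomal order on the horizontal axis (not to distance) and the log2 difference BALB/cByJ minus BALB/cJ on the vertical axis, in naïve mice above and immunized mice below. The 4 points of Glo1 lie between 1.34 and 1.66, those of the flanking genes stay under 0.5 except Gm20161 at 1.42 and 0.69, and Btbd9 and Glp1r lie at the level of the flanking genes.

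Of the called flanking genes, Pim1 encodes a serine/threonine kinase induced by cytokine signalling. Its probe set 1435458_at had values of 0.39, 0.19 and 0.35 in naïve BALB/cByJ mice against -0.15, -0.16 and -0.07 in naïve BALB/cJ mice. In immunized mice the values were 0.07, 0.18 and 0.13 against -0.13, -0.08 and -0.23. All BALB/cByJ arrays were above all BALB/cJ arrays. The difference was 0.44 (SE 0.078, limma adjusted p = 0.0125) in naïve mice and 0.35 (adjusted p = 0.00719) over both states, and 0.27 (adjusted p = 0.446) in immunized mice, and a further Pim1 probe set, 1423006_at, was called in naïve mice too with 0.42 (adjusted p = 0.0336). The predicted gene Gm20161 had 0.55, 0.56 and 0.93 in naïve BALB/cByJ mice against -1.30, -0.89 and -0.02 in naïve BALB/cJ mice. Its immunized values, -0.03, 0.29 and 0.86 against 0.02, -0.10 and -0.88, overlapped between the colonies. The difference of Gm20161 was 1.42 (SE 0.32, adjusted p = 0.0281) in naïve mice, 1.05 (adjusted p = 0.0224) over both states and 0.69 (adjusted p = 0.630) in immunized mice. Ppil1, a peptidyl-prolyl isomerase gene at the outer end of the 15, was called over both states only with 0.33 (SE 0.077, adjusted p = 0.0297).

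Immunization was tested on the members, since the choice of genes had not used this contrast. In BALB/cJ mice limma called 0 of the 13 probe sets, as it did of all probe sets (0%), and 1 had an unadjusted p under 0.05 against 9.19% of all. In BALB/cByJ mice it called 0 of 13 against 0.0511%, and 1 had an unadjusted p under 0.05 against 8.3%. Over both colonies it called 0 against 0.0466%, with 0 at an unadjusted p under 0.05 against 9.91%. The arrays of naïve mice carry sample numbers 10 to 15 and those of immunized mice 29 to 33 and 48 to 50, so immunization and run of sample numbers cannot be told apart. The methods' analysis of variance with its post hoc test called 1 probe set in each colony, Dnah8 1424936_a_at in BALB/cJ against 0.0622% of all probe sets and Glo1 1451240_a_at in BALB/cByJ mice against 0.06%. The post hoc test was run only on probe sets that passed the comparison of the 4 groups, which 7 members passed with the colony difference that chose them, so these calls are not independent of that choice and nothing is read from them.

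The 95% confidence intervals bound what immunization could have done to Glo1 RNA at this number of arrays. For 1424108_at the response was 0.04 (-0.11 to 0.18) in BALB/cJ and 0.01 (-0.13 to 0.15) in BALB/cByJ mice on the log2 scale. For 1436070_at it was -0.01 (-0.19 to 0.16) and 0.04 (-0.14 to 0.21). These intervals are narrow beside the colony difference of Glo1. For 1424109_a_at the response was 0.17 (-0.03 to 0.37) and 0.01 (-0.20 to 0.21). Probe set 1451240_a_at responded by 0.05 (-0.17 to 0.28) in BALB/cJ and by -0.25 (-0.47 to -0.02, limma adjusted p = 0.579) in BALB/cByJ mice. Its 3 immunized BALB/cByJ arrays were all below the 3 naïve ones, a separation in either direction that 12.1% of all probe sets showed. Naïve BALB/cByJ array 1, the highest for this probe set, also had a median of 2.10 over 15 pancreatic acinar genes, where no other array was above 0.26. Without it the response was -0.17, and the part of that tissue in the result was not tested. The other 3 Glo1 probe sets gave no such fall.

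Dnah8 1424936_a_at responded by -0.28 (-0.52 to -0.03, limma adjusted p = 0.488) in BALB/cJ and by 0.14 (-0.10 to 0.38) in BALB/cByJ mice. Its immunized and naïve arrays overlapped in both colonies. The BALB/cJ value was -0.15 without immunized array 1, and 1700097N02Rik 1436419_a_at, which responded by -0.28 (-0.60 to 0.04) in BALB/cJ mice, gave -0.09 without it. That array was the lowest of the 12 for both, and it was also among the arrays with high pigment cell genes, with a median of 0.88 over 10 such genes. The medians of the pigment cell list were 0.94 and 1.09 in naïve BALB/cJ arrays 1 and 2, 0.25 in immunized BALB/cByJ array 2 and at most 0.04 in the other arrays, and the part of these cells in the result was not tested. The Glo1 means of the pigment rich BALB/cJ arrays were -0.72, -0.83 and -0.71, against -0.80, -0.66 and -0.80 in the others of the colony. In Glo1 1451240_a_at naïve BALB/cJ array 1 was the highest of its colony at -0.56. Without that array the BALB/cJ response of this probe set was 0.17 instead of 0.05.

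The difference between the responses of the colonies was called for 0 of the 13 probe sets and for 0% of all probe sets, and 1 member had an unadjusted p under 0.05 against 7.59% of all. This was Dnah8 1424936_a_at, with 0.42 (0.07 to 0.76, limma adjusted p = 0.585). The Glo1 probe sets differed in response by -0.03, -0.17, 0.05 and -0.30, with adjusted p values of 0.969, 0.806, 0.949 and 0.675. Btbd9 1431230_a_at had a response of -0.12 (-0.27 to 0.03) in BALB/cJ and 0.08 (-0.07 to 0.23) in BALB/cByJ mice. Its 3 immunized BALB/cJ arrays were below the naïve ones, a separation in either direction shown by 17% of all probe sets. Glp1r responded by 0.07 (-0.17 to 0.32) and 0.03 (-0.21 to 0.28).

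**Figure D3:**
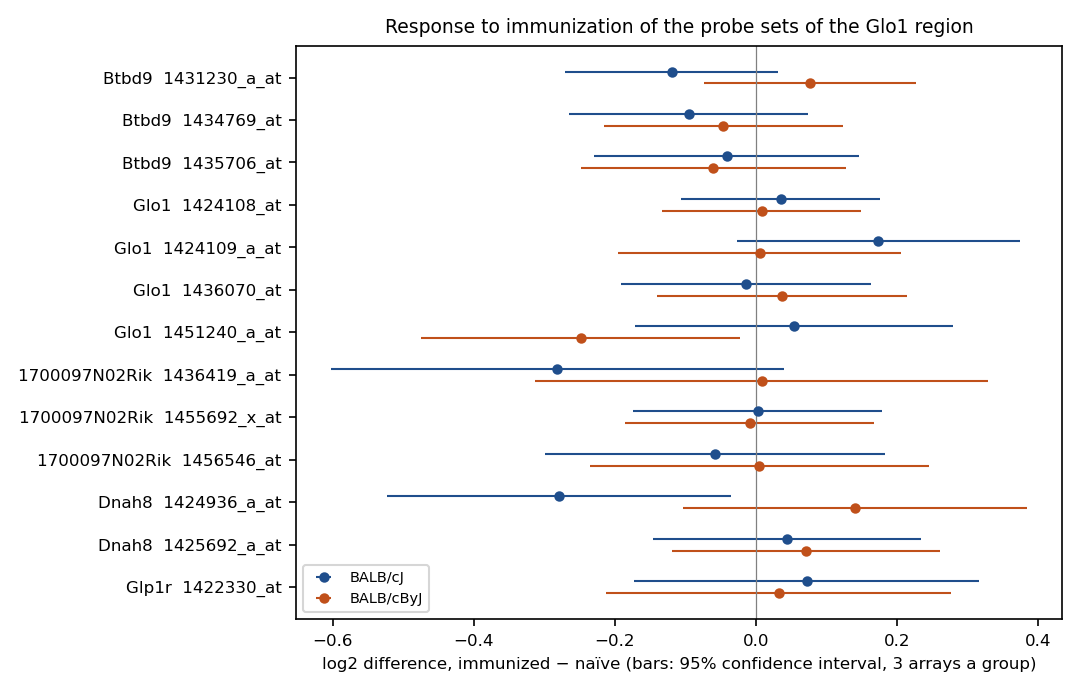
Points are the log2 difference immunized minus naïve of each of the 13 probe sets in BALB/cJ and BALB/cByJ mice, and horizontal bars are 95% confidence intervals from the fit over 12 arrays with 3 arrays a group. The intervals cover 0 except for Dnah8 1424936_a_at in BALB/cJ (-0.52 to -0.03) and Glo1 1451240_a_at in BALB/cByJ mice (-0.47 to -0.02), and neither passed the adjusted threshold.

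A list of 19 genes related to methylglyoxal and glutathione, called the pathway here, was fixed, of which 18 were measured with 44 probe sets. Besides Hagh and genes of glutathione supply it held others such as Akr1a1, Aldh2, Tpi1 and Ager. In naïve mice 5 of the 18 were called between the colonies against the 7.39% of all genes, 3 of them higher and 2 lower in BALB/cByJ. At the level of probe sets, 10 of the 44 had an unadjusted limma p under 0.05 there against 18.7% of all. In immunized mice 0 were called by limma against 0.165%, with 4 probe sets at an unadjusted p under 0.05 against 7.92% of all, and 0 by the analysis of variance. Over both states 5 were called against 7.79%, 4 higher and 1 lower, with 15 probe sets at an unadjusted p under 0.05 against 18.9% of all. The median difference of the list was 0.01 in naïve and 0.03 in immunized mice. The count in naïve mice was 0 without any one of the same 3 arrays, naïve BALB/cByJ array 3 and naïve BALB/cJ arrays 1 and 2, and it was also 0 by the analysis of variance, which called 0.149% of all probe sets there.

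Hagh, whose product acts on the product of glyoxalase 1, had values in 1424171_a_at of 0.25, 0.44 and 0.51 in naïve BALB/cByJ and -0.57, -0.78 and -0.07 in naïve BALB/cJ mice. The immunized values were -0.15, 0.08 and 0.20 against -0.15, 0.07 and -0.69, so the colonies overlapped once immunized mice were included. The difference was 0.87 (SE 0.20, limma adjusted p = 0.0295) in naïve mice and 0.30 (adjusted p = 0.737) in immunized mice. Gclc and Gclm encode the catalytic and modifier subunits of glutamate-cysteine ligase, the first enzyme of glutathione synthesis. Gclc 1424296_at differed by 0.78 (SE 0.14, adjusted p = 0.0115) and Gclm 1439050_at by 0.96 (SE 0.21, adjusted p = 0.0251) in naïve mice, and by 0.12 and 0.37 in immunized mice. Haghl, a gene related to Hagh, was called over both states in 1428630_x_at with 0.28 (limma adjusted p = 0.0379). The suffix marks probes that can also bind other transcripts, and the call was kept under 6 alternatives and lost under 14. Haghl 1433650_at was not higher in immunized BALB/cByJ mice, with -0.11, -0.08 and -0.10 against 0.01, 0.17 and -0.01. Haghl 1428584_a_at and 1429958_x_at were higher there but were not called.

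Lower in naïve BALB/cByJ mice were Slc7a11 1443536_at, of the cystine importer that supplies glutathione synthesis, with -0.48 (SE 0.089, limma adjusted p = 0.0142), and Pnkd 1451399_at, with -0.28 (adjusted p = 0.0497). Slc7a11 1420413_at overlapped, with -0.39, 0.11 and -0.45 against 0.03, 0.24 and -0.03 in naïve BALB/cJ mice. Pnkd 1418746_at also overlapped in naïve mice, with -0.02, -0.01 and 0.17 against 0.11, 0.03 and -0.02. In immunized mice it was higher in BALB/cByJ, with 0.10, 0.01 and 0.18 against -0.26, -0.24 and -0.25. The Pnkd call was kept under 2 alternatives and lost under 21. Pnkd encodes a protein related to glyoxalase 2. Park7, the gene of the redox-sensitive protein DJ-1, differed by -0.04 and -0.02 in its probe sets in naïve mice and was not called.

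The medians of the erythroid list, 18 of 20 genes measured, were lowest in the same 3 BALB/cJ arrays as Hagh, Gclc and Gclm, and the part of erythroid cells in these results was not tested. They ran from -1.53 to -0.25 in naïve BALB/cJ, from 0.22 to 0.68 in naïve BALB/cByJ, from -1.05 to 0.21 in immunized BALB/cJ and from -0.12 to 0.51 in immunized BALB/cByJ mice. With the mean of this list as a covariate 0 of the 18 pathway genes and 0 of the 30 flanking genes were called in naïve mice. The colony difference of Glo1 was then 1.48 in naïve and 1.40 in immunized mice. The erythroid medians of naïve mice did not overlap between the colonies, so this covariate and the colony cannot be told apart there. Nothing is read from the loss of these calls. Immunized BALB/cJ array 3, the lowest of its group for Hagh, Gclm and Gm20161, was also the lowest for the erythroid list, and its Glo1 mean of -0.80 lay within the range of its colony.

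**Figure D4:**
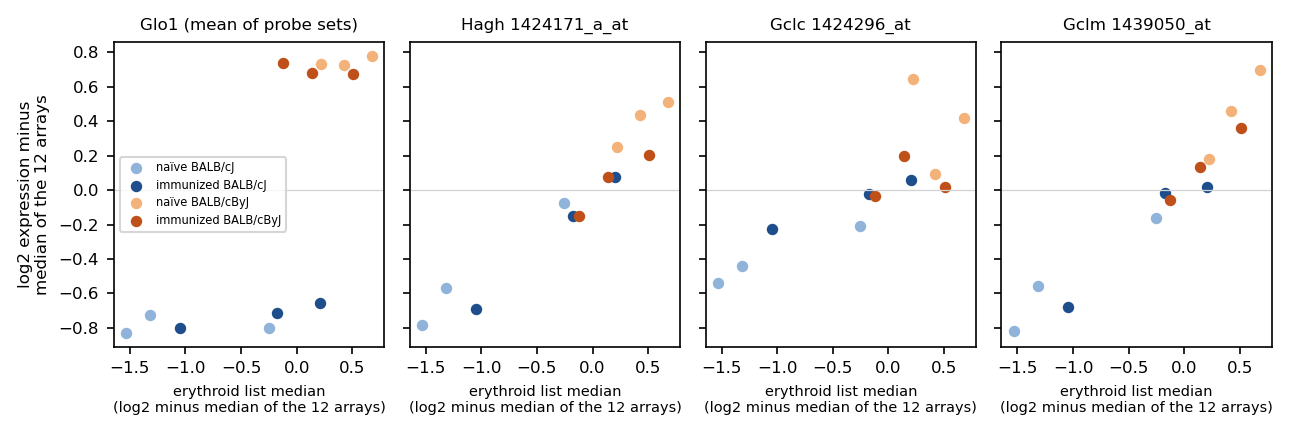
Each point is 1 of the 12 arrays, with the median of 18 erythroid genes on the horizontal axis and the log2 expression of Glo1 (mean of 4 probe sets), Hagh, Gclc or Gclm on the vertical axis, both minus the median of the 12 arrays. The Glo1 points form separate bands for the colonies, between -0.83 and -0.66 and between 0.67 and 0.78. The lowest Glo1 point is that of the array with the lowest erythroid median. Hagh, Gclc and Gclm are lowest in the BALB/cJ arrays with the lowest erythroid medians.

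Genes related to the other members were listed as well, and their counts are read beside the shares of all genes called, 7.39% for naïve, 0.165% for immunized and 7.79% for both states together. Of the axonemal dynein genes, 11 of 18 were measured and 0 were called by limma in either state or over both, with 3 of 17 probe sets at an unadjusted p under 0.05 in naïve mice (18.7% of all) and 2 in immunized mice (7.92% of all). Of 16 measured genes of BTB domain proteins and the cullin-3 ligase, 1 was called in naïve mice, Klhl12 with 0.75 (SE 0.14, adjusted p = 0.0142), and 2 over both states, Klhl12 with 0.54 and Btbd3 with -0.44 (adjusted p = 0.0346). Klhl12 is a substrate adaptor of the cullin-3 ligase, and its values were lowest in naïve BALB/cJ arrays 1 and 2 and immunized BALB/cJ array 3 (-0.53, -0.59 and -0.50), the arrays with the lowest erythroid medians (-1.32, -1.53 and -1.05). Of 14 measured genes of incretins and class B receptors, 2 were called in naïve mice and both were lower in BALB/cByJ. These were Calcrl 1418489_a_at with -0.75 (adjusted p = 0.0471) and Dpp4 1441342_at with -0.31 (adjusted p = 0.0451). Their calls were kept under 6 and 4 alternatives and lost under 16 and 19. Calcrl 1459536_at was not lower, with -0.01, 0.14 and 0.12 against -0.07, 0.01 and -0.18 in naïve BALB/cJ mice. Dpp4 1438279_at overlapped, with 0.16, 0.26 and -0.06 against -0.01, 0.25 and 0.14. In Calcrl 1425814_a_at and Dpp4 1416697_at and 1459973_x_at every naïve BALB/cByJ array was below every naïve BALB/cJ array. The share of all probe sets with such a separation in naïve mice was not computed, so nothing is read from it. Calcrl encodes a receptor of adrenomedullin and the calcitonin gene-related peptide, and Dpp4 encodes the protease that inactivates incretins. In naïve mice 8 of the 33 BTB and cullin-3 probe sets had an unadjusted limma p under 0.05, as had 6 of the 24 incretin and receptor probe sets. The share of all probe sets was 18.7%. In immunized mice 0 genes of these 3 lists were called by limma. There 2 of 17, 3 of 33 and 2 of 24 probe sets had an unadjusted p under 0.05 against 7.92% of all. In naïve mice 0 genes of the lists were called without naïve BALB/cByJ array 3 or naïve BALB/cJ array 1 or 2. With the erythroid mean as a covariate 0 genes of these lists were called in naïve mice and over both states. Covariate and colony cannot be told apart in naïve mice, so nothing is read from this loss of calls. The median of 9 pancreatic islet genes, a tissue in which Glp1r is expressed, lay between -0.11 and 0.11 in all arrays.

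The genes whose pattern over the 12 arrays was most like the mean of the Glo1 probe sets were found by Pearson correlation. These correlations are descriptions, since every array of a colony shares that colony's level and a large colony difference by itself gives a high value. The highest outside the members were Neto1 1456283_at with 0.996, Zhx2 with 0.995, a further Neto1 probe set with 0.988, Ap3s2 with 0.975, Rttn with 0.974 and Rexo4 with 0.968. Their BALB/cByJ minus BALB/cJ differences over all arrays ran from 0.46 in Rttn to 2.85 in Neto1, so Neto1 exceeded Glo1 in size. The opposite pattern was closest in Arl2bp with -0.992 and -0.991, Rtf2 with -0.99 and -0.987, Acads with -0.989 and Tfe3 with -0.988. Zhx2 encodes a transcriptional repressor and Acads the short-chain acyl-CoA dehydrogenase.

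Among the members themselves, 1700097N02Rik followed Glo1 with 0.967, 0.989 and 0.919, and Dnah8 with 0.932 and 0.709. Btbd9 gave 0.47, 0.58 and 0.23 and Glp1r gave -0.12. Once the group means were taken out, the correlation with the Glo1 mean ranged from -0.10 to 0.32 for 1700097N02Rik and from 0.27 to 0.38 for Dnah8. Btbd9 gave -0.10, -0.50 and -0.22 and Glp1r gave -0.29. The Glo1 probe sets gave 0.62, 0.78, 0.32 and 0.50. They are part of that mean, which raises their own values, so nothing is read from Glo1 beside its neighbours here. The highest of these within-group correlations were those of Cep20 with 0.931, Ajap1 with 0.929, Grpel1 with 0.929, Dnajc4 with 0.919 and Mrpl17 with 0.916, whose own colony differences lay between -0.01 and 0.08.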

How the data were processed

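Spleen RNA of 12 mice was hybridized to whole-genome Affymetrix mouse arrays. The authors summarised probes on a log scale in GeneSpring with the robust multi-array average (quantile normalization, then median polish) and set every probe set to a baseline, the middle of the 12 samples. Log2 was assumed for these deposited values, since no base is named; row medians lay within 5e-07 of 0. Signal levels are lost, so no filter on dim probe sets could be applied and absence of RNA cannot be read. The number of arrays limits the precision, and the SD over probe sets of an array was 0.13 to 0.265. No pair of arrays was identical, the smallest SD of a difference between arrays being 0.173.

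After removal of 64 control probe sets from 45101, 45037 were tested without a filter. The platform annotation gave 34945 of them 1 gene, 932 several and 9160 none, and only the first kind was named. Group means were fitted to all 12 arrays with limma 3.58.1 in R 4.3.3 (lmFit, eBayes, not robust), with Benjamini-Hochberg adjustment over all probe sets and a threshold of 0.05. Contrasts were the colonies in each state and over both, immunization in each colony and over both, and the difference of responses. A gene was called if any of its probe sets was. The fit was tested on simulated data. The methods' analysis of variance with Student-Newman-Keuls test, other normalizations, weights, covariates, subsets of probe sets and each array left out were alternatives. Gene order and start windows came from RefSeq tables of GRCm38.p6, used for order and for the printed sequences only.

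The members and gene lists were chosen with earlier results of these data known. Named were all members, the 3 nearest flanking genes on each side and those called, up to 4 called genes of each list with Hagh and Park7, and the genes most like Glo1. Haghl and Pnkd were named in addition, after their values were seen, to complete the counts of their list. Lists of B cell, T cell, macrophage and neutrophil markers were also summarised. Their medians over arrays ran from -0.16 to 0.17, from -0.35 to 0.14, from -0.45 to 0.32 and from -1.02 to 1.30. In naïve mice the B cell medians were 0.03 to 0.17 in BALB/cJ and -0.16 to -0.05 in BALB/cByJ. The other lists overlapped between the colonies there. Neutrophil medians were -0.85 to 0.13 in naïve and 0.54 to 0.86 in immunized BALB/cJ mice. In BALB/cByJ mice they were -1.02 to -0.76 and -0.12 to 1.30. The part of these cells in the results was not tested. All 12 columns were used and 0 belonged to other samples.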

Additional observations from a re-analysis of the deposited data

How the results depend on the processing

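The colony difference of Glo1 kept its direction under every alternative run. It was 1.42 in naïve and 1.72 in immunized mice after quantile normalization of the deposited values, 1.48 and 1.49 without probe sets whose suffix marks shared probes, and 1.48 in naïve mice with the erythroid covariate. With each array left out in turn it ran from 1.51 to 1.56 in naïve and from 1.38 to 1.45 in immunized mice, and within the runs of sample numbers of immunized mice it was 1.42 (2 BALB/cByJ arrays against 1) and 1.40 (1 against 2). The calls of 0 for immunization and response difference held except under the methods' analysis of variance, which called 1 probe set in each colony.

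Counts of called neighbours and pathway genes moved more. Flanking genes were 2 in naïve mice and 3 over both states, 6 and 5 with array weights, and 4 in naïve mice with probe sets averaged per gene. Pathway genes of Glo1 went from 5 and 5 to 3 and 3 without the suffixed probe sets. Genes related to the other members went from 3 in naïve mice to 9 with array weights and to 1 with quantile normalization, with only the compared groups or with the run of sample numbers as a block, and from 4 over both states to 2 with probe sets averaged per gene. All 6 of these counts were 0 with the erythroid covariate, which cannot be told apart from colony in naïve mice. They were also 0 when the 4 pigment-rich arrays were left out, an alternative chosen after seeing the data that also leaves fewer arrays. The analysis of variance called 0 of the 3 sets in naïve mice. The cause of these changes was not tested. With each array left out, the counts in naïve mice and over both states ran from 0 to 2 and from 1 to 3 for flanking genes, from 0 to 4 and from 0 to 5 for the pathway, and from 0 to 3 and from 1 to 4 for the related genes. All 3 counts in naïve mice were 0 without naïve BALB/cByJ array 3 or naïve BALB/cJ array 1 or 2. The pathway count over both states was 0 without any of these or immunized BALB/cByJ array 2 or 3 or immunized BALB/cJ array 3, and the flanking and related counts were then 1. The pathway count was 3 in naïve mice and over both states without naïve BALB/cByJ array 2, and 3 over both states without immunized BALB/cJ array 1. The related count in naïve mice was 1 without immunized BALB/cByJ array 2 or 3 or immunized BALB/cJ array 1 or 3, and over both states it was 1 without immunized BALB/cJ array 1. Of 605 values of single named non-member genes, 262 lost the call and 0 turned direction.

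Deviations of arrays with the same replicate number correlated between -0.289 and 0.368 (median 0.103). Arrays with different numbers were not compared in this way, so these values do not settle whether the numbers pair the arrays. With the replicate block the Glo1 difference stayed at 1.53 and 1.42, and the calls in naïve mice, immunized mice and over both states were 2, 0 and 4 for flanking genes, 4, 0 and 5 for the pathway and 2, 0 and 3 for the related genes. A block for the run of sample numbers could not be fitted for the immunization contrasts.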
